A study of Rattus norvegicus with 38 samples.

Results

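Smooth muscle cells of the artery wall contract through a specialised set of proteins, and 3 genes of that set were followed across vessels and neurons of the rat frontal cortex. The set held Acta2 (ENSRNOG00000058039), Tagln (ENSRNOG00000017628) and Myh11 (ENSRNOG00000057880), that is 3 of the 32883 gene IDs in the table. The names came with the definition of the set, since the table holds IDs only. The members were chosen because their counts were high in vessels and, in the early stage, higher in SHRSP than in Wistar vessels, so those contrasts are given below as values with no test. Comparisons of late with early vessels use the same early libraries and are not independent of the choice.

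The study compared the stroke-prone spontaneously hypertensive rat (SHRSP), an inbred strain that develops severe high blood pressure, with Wistar rats. Blood vessels and neurons were cut from cortex by laser microdissection, and each of 19 animals gave 1 library of either material. The titles of the vessel libraries carry the word Endothel, for endothelium. The 4 groups per material were late SHRSP (32 to 34 weeks of age, 5 animals), late Wistar (the same ages, 4 animals), early SHRSP (24 to 25 weeks, 5 animals) and early Wistar (the same ages, 5 animals). The stage names describe hypertension and were also given to Wistar rats, for which they mark age alone, and no drug, diet or gene alteration was named in the labels. Wistar is an outbred stock and not the strain from which SHRSP was bred, so strain difference here covers everything in which these rats differ.

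The contractile unit of smooth muscle slides actin filaments past myosin filaments and is switched by calcium through phosphorylation of the myosin light chain. Acta2 encodes smooth muscle alpha-actin, the thin filament protein of arterial muscle, which some pericytes also make. Tagln encodes transgelin (SM22 alpha), a small protein bound to actin filaments, and Myh11 encodes the smooth muscle myosin heavy chain, the thick filament motor. In many smooth muscle genes the factor SRF, with its partner myocardin, binds a short motif called the CArG box. In brain the genes are known mainly from the wall of arteries and arterioles, and neurons are not known to use them.

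The promoter of Acta2 is shown because these genes are the textbook targets of SRF, and it was the only member promoter in the RefSeq table used (build GRCr8, chr1:241172454-241172753, minus strand). The window runs 5′ to 3′ from 250 bases before the annotated start to 50 bases after it, and capitals mark 2 CArG-like boxes and the letters TATAA.

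Acta2 promoter: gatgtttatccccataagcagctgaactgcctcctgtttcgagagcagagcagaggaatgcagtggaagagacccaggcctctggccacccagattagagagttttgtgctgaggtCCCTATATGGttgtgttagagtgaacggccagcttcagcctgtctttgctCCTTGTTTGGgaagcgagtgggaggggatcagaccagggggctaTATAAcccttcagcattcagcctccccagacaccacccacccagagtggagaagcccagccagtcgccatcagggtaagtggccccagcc

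Both CArG-like boxes carry 1 G or C among the 6 central letters, where a full CArG box has A or T only. They begin 134 and 84 bases before the start, and the TATAA begins 40 bases before it. A full CArG box was absent from this window and present in 1.64% of 33469 rat promoter windows of the same kind. A box with at most 1 G or C, full boxes included, was present in 9.42%. TATAA on the gene's own strand or the opposite strand was present in 26.2% of the windows. The letters CATTCC, the core of the MCAT motif, were found once on the opposite strand and were present in 14.2% of windows. CANNTG, the E-box, was found at 1 place and in 72.1% of windows. Both strands were searched throughout, none of these matches overlapped another, and a match is a description of letters, not of binding.

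The libraries were 3' mRNA tag libraries (QuantSeq FWD), in which each transcript gives about 1 tag near its 3' end, so long transcripts do not collect more counts than short ones. They held 1612966 to 4963429 counts in vessels and 1198386 to 4101901 in neurons. Vessel libraries differed in complexity: 9875 to 11974 IDs were detected in the late groups, 4104 to 10207 in early SHRSP and 5833 to 11754 in early Wistar. A single ID, the most abundant of the table, took a share of neuron counts that fell into separate ranges, at most 10.7% in 8 animals and at least 20.4% in 11 animals. The 11 high-share animals were all 9 late animals plus early SHRSP animal 383 and early Wistar animal 349. The 8 low-share animals were all early, so apart from those 2 animals stage and library set cannot be told apart. Complexity of vessel libraries split by the same sets, with 4104 to 8752 IDs in low-share animals and the early highs of 10207 and 11754 in animals 383 and 349. In vessels the share of that ID did not split so, at 9.69% in high-share animal 378 and 16.3% in low-share animal 340. Levels are CPM, counts scaled to a common library total with TMM factors within a material, and libraries are named by animal number. Labels of material could not be checked against marker lists, since the IDs are not paired with names.

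In early vessels, Acta2 and Tagln were higher in SHRSP than in Wistar in every library, and Myh11 was higher on average with overlap. Acta2 had 2134, 3168, 1773, 2289 and 1334 CPM in early SHRSP animals 374, 377, 380, 383 and 386, against 45.7, 111, 496, 324 and 1261 CPM in early Wistar animals 340, 343, 346, 349 and 368. The lowest SHRSP library lay just above the highest Wistar library, which was animal 368, and the other 4 Wistar libraries were far lower. The means were 2140 ± 683 CPM in SHRSP and 448 ± 488 CPM in Wistar (SD, n = 5 each), a fitted log2 fold of 2.26 (SE 0.38) or 4.78-fold. In such bulk material, fewer muscle cells in the cut tissue and less RNA per muscle cell cannot be told apart.

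Tagln had 1447, 1768, 850, 1144 and 483 CPM in the early SHRSP animals, in the same order, against 51.1, 50.5, 10.9, 172 and 446 CPM in the early Wistar animals. Again every SHRSP library was above every Wistar library, and animal 368 was again the highest Wistar library, close to the lowest SHRSP library. The means were 1138 ± 501 CPM in SHRSP and 146 ± 178 CPM in Wistar (SD, n = 5 each), a fitted log2 fold of 2.96 (SE 0.52) or 7.79-fold. Within Wistar, transgelin was the most variable of the 3 genes, with a 41-fold span between animals 346 and 368.

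Myh11 had 1609, 708, 533, 2344 and 502 CPM in the early SHRSP animals, against 171, 249, 264, 1134 and 772 CPM in the early Wistar animals. The groups overlapped: Wistar animals 349 and 368 were above 3 of the 5 SHRSP libraries. The means were 1139 ± 811 CPM in SHRSP and 518 ± 419 CPM in Wistar (SD, n = 5 each), a fitted log2 fold of 1.14 (SE 0.38) or 2.20-fold. The highest library of either strain was its high-share animal, 383 in SHRSP and 349 in Wistar, which was not so for the other 2 genes.

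**Figure D1:**
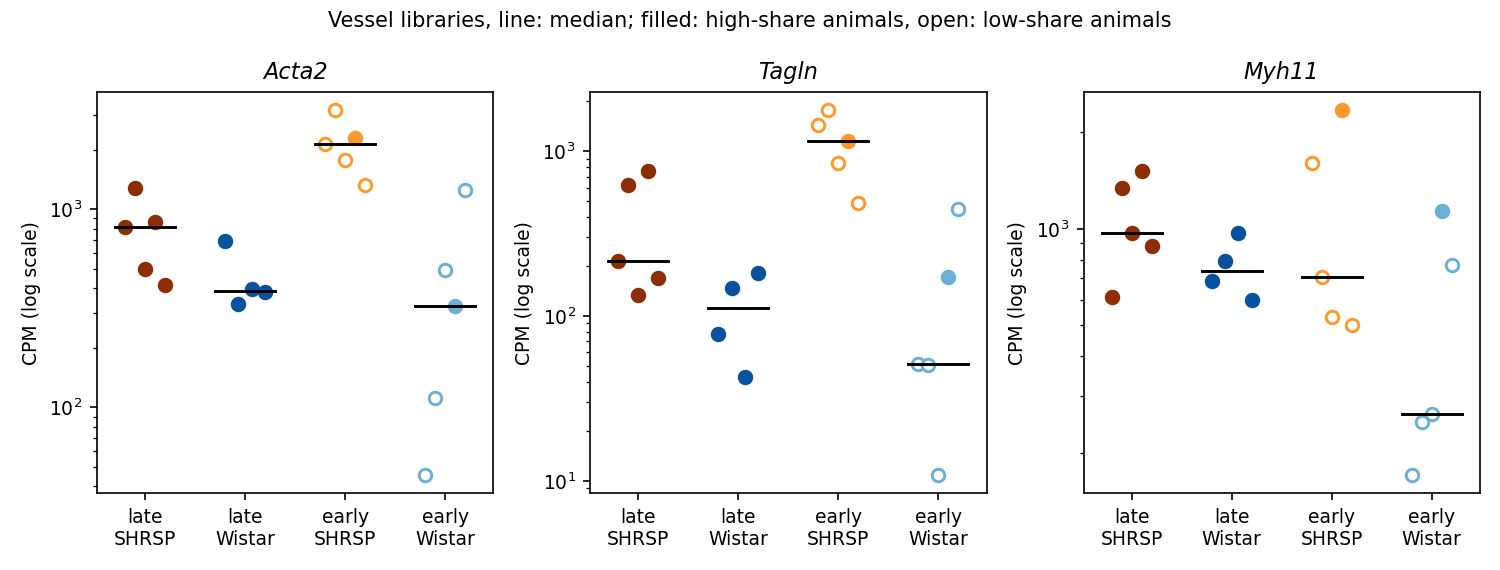
CPM of Acta2, Tagln and Myh11 in each of the 19 vessel libraries on a log axis, by group, with the group median as a line; filled points are the 11 high-share animals and open points the 8 low-share animals. The 5 early SHRSP libraries lie above all 5 early Wistar libraries for Acta2 and Tagln, and the groups overlap for Myh11.

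Over all 11011 IDs tested in vessels, 0.254% were called between the strains in the early stage at an adjusted p under 0.05, 0.218% as higher and 0.0363% as lower in SHRSP, by edgeR's quasi-likelihood test. The balance of 24 higher and 4 lower IDs was not stable: it was 150 and 331 with DESeq2, 18 and 118 with limma voom, 13 and 15 with the library set as a term, 4 and 24 in high-share animals only, and 133 and 1004 without animal 383. Every SHRSP library was above every Wistar library for 0.218% of the IDs, and 2 of the 3 members were among them. The members were chosen on this contrast, so nothing is read from that count. The median log2 fold of all IDs was -0.20, and 89.2% of IDs had a smaller fold than Acta2, 93.0% than Tagln and 77.3% than Myh11.

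Other IDs that were higher in vessels than in neurons moved in the same direction. Of 868 such IDs, members aside, 665 had a positive log2 fold in early SHRSP against early Wistar vessels, with a median of 1.15. The list was drawn from these same libraries, over the mean of 4 groups that include early SHRSP vessels, so an ID could enter through high values there. The folds and count shares of these IDs are therefore not independent of how the list was made, here and in the comparisons below. The fold of Acta2 was above that of 666 of them and the fold of Tagln above that of 749, whereas Myh11 was above 429 and so near the middle. These IDs held 12.0% to 15.9% of the counts of early SHRSP vessel libraries and 4.71% to 12.2% of early Wistar vessel libraries, with animal 368 the highest of the Wistar libraries. The part of vessel content in the strain difference of the members was not tested.

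Animal 368 weighed on the early strain difference of Acta2 and Tagln. Without it the log2 fold was 3.21 for Acta2 and 3.99 for Tagln, and the other animals left out 1 at a time gave no shift above 1.5-fold. Myh11 ranged between 0.63 without SHRSP animal 383 and 1.62 without Wistar animal 349. Among the 8 low-share animals alone the log2 folds were 2.03 for Acta2, 2.89 for Tagln and 1.06 for Myh11. Between the single high-share animal of each strain they were 2.80, 2.72 and 1.03 in the same order, with SEs of 0.60, 1.48 and 0.54 from 1 library a strain. The count of all IDs called, 28 with all animals, was 1137 without animal 383 and lay between 7 and 54 without any other animal.

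In late vessels the 3 genes were on average higher in SHRSP too, but no member passed the test over all IDs and the strains overlapped for each gene. Every SHRSP library was above every Wistar library for 0.608% of IDs. Tagln had 214, 624, 135, 759 and 170 CPM in late SHRSP animals 378, 379, 381, 382 and 384, against 77.8, 147, 42.8 and 182 CPM in late Wistar animals 350, 351, 353 and 354. SHRSP animals 379 and 382 were far above all the others and the remaining 3 SHRSP libraries lay around the higher Wistar libraries. The means were 380 ± 290 CPM in SHRSP (SD, n = 5) and 112 ± 63.4 CPM in Wistar (SD, n = 4). The log2 fold was 1.76 (SE 0.54, 95% interval 0.70 to 2.81), with an unadjusted p of 0.00110 and an adjusted p of 1.0 in edgeR's test. With DESeq2 the SE was 0.84 and the unadjusted p 0.0305, and with limma voom they were 0.92 and 0.134. Both SEs were larger than edgeR's, so the interval is edgeR's own.

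Acta2 had 814, 1280, 501, 869 and 417 CPM in the late SHRSP animals, against 694, 334, 394 and 381 CPM in the late Wistar animals. Only Wistar animal 350 was above any SHRSP library, namely those of animals 381 and 384. The log2 fold was 0.78 (SE 0.39, 95% interval 0.02 to 1.55, edgeR's adjusted p = 1.0). With DESeq2 it was 0.83 (SE 0.73), and with limma voom 0.69 (SE 0.50). Myh11 had 613, 1343, 970, 1518 and 886 CPM in the late SHRSP animals, against 689, 792, 968 and 600 CPM in the late Wistar animals. The myosin values were interleaved, with SHRSP animals 379 and 382 above all others and animal 378 near the lowest. Its log2 fold was 0.48 (SE 0.40, 95% interval -0.30 to 1.27; edgeR's adjusted p = 1.0).

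The late strain comparison called 0 of the 11011 IDs in edgeR, 11 with DESeq2 and 1 with limma voom, so a miss by the members does not set them apart. In edgeR's test 102 IDs had an unadjusted p under 0.05, fewer than the 551 that chance alone would give. The folds of the members stood above 86.6% (Acta2), 96.6% (Tagln) and 77.2% (Myh11) of all IDs, whose median was -0.01. For the 868 vessel-enriched IDs the median was 0.16, and 831 of them had a smaller fold than Tagln.

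Within SHRSP vessels, Acta2 and Tagln were lower in the late than in the early stage and Myh11 was about level, though no member passed the test over all IDs. The members were chosen for high values in these same early SHRSP libraries, which leans a late minus early fold downward, so the p-values here are not independent of that choice. Acta2 averaged 776 ± 342 CPM in late SHRSP vessels and 2140 ± 683 CPM in early SHRSP vessels (SD, n = 5 each), and every late library, at 417 to 1280 CPM, was below every early library, at 1334 to 3168 CPM. Its log2 fold was -1.46 (SE 0.37), with an unadjusted p of 7.43e-05 and an adjusted p of 0.188 in edgeR's test. Late libraries were all below early libraries for 0.245% of the 11011 IDs, and 0.00908% were called by the test. Acta2 passed with limma voom (adjusted p = 0.00800), a fit that called 1252 IDs, 1236 as higher and 16 as lower late. It also passed in the edgeR fit of these 2 groups alone (adjusted p = 0.00680), which called 6 IDs, all as lower late. With DESeq2, which called 358 IDs, Acta2 had an unadjusted p of 0.0163 and an adjusted p of 0.195. Over all alternatives its adjusted p ran between 0.00680 and 1.0.

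Tagln averaged 380 ± 290 CPM in late SHRSP vessels and 1138 ± 501 CPM in early SHRSP vessels (SD, n = 5 each), with late animals 379 and 382 inside the early range and the other 3 below it. Its log2 fold was -1.58 (SE 0.49, edgeR's adjusted p = 0.188). Tagln passed in the same limma voom fit at an adjusted p of 0.0215, in a range of 0.0215 to 0.951 over all alternatives. Myh11 averaged 1066 ± 363 CPM in late SHRSP vessels and 1139 ± 811 CPM in early SHRSP vessels (SD, n = 5 each), and the late values lay wholly within the early range. Its log2 fold was -0.10 (SE 0.37, 95% interval -0.83 to 0.64; edgeR's adjusted p = 0.946), and the sign turned to 0.50 without early animal 383.

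The median log2 fold of all IDs in this comparison was 0.45 and that of the vessel-enriched IDs was -0.64, so Acta2 and Tagln were below both medians and Myh11 lay between them. Against the only early high-share SHRSP animal, 383, the late animals gave log2 folds of -1.55 for Acta2, -1.58 for Tagln and -1.13 for Myh11. The adjusted p in edgeR's test was 0.0530 for Acta2, 0.876 for Tagln (SE 0.96) and 0.363 for Myh11, so none passed. With the library set as a term the log2 folds were -1.31, -1.71 and -1.20 in the same order, with edgeR's adjusted p at least 0.945 for each. In either fit the Myh11 estimate was lower than the -0.10 given above, but whether Myh11 was level is not settled. In the fit against animal 383 the early value rests on 1 animal, which the fit assumes to vary like the others. The set term is shared by the strains, so Wistar animal 349 also bears on the folds of that fit. Leaving out animal 383 raised the count of all IDs called to 1310, against 1 with all animals, and none of the 3 members was among those called in that fit.

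In Wistar vessels no member passed the test between the stages, where the choice of members leans the fold upward through the early Wistar libraries. Acta2 averaged 451 ± 164 CPM in late (SD, n = 4) and 448 ± 488 CPM in early Wistar vessels (SD, n = 5), a log2 fold of 0.01 (SE 0.38, 95% interval -0.74 to 0.76; edgeR's adjusted p = 1.0). Tagln averaged 112 ± 63.4 CPM in late and 146 ± 178 CPM in early Wistar vessels, a log2 fold of -0.38 (SE 0.52, 95% interval -1.39 to 0.63; edgeR's adjusted p = 1.0). Myh11 averaged 762 ± 158 CPM in late and 518 ± 419 CPM in early Wistar vessels, a log2 fold of 0.56 (SE 0.40, 95% interval -0.22 to 1.33; edgeR's adjusted p = 1.0). For each gene the 4 late libraries lay inside the range of the early ones, which was wider. Of all IDs, 0.00908% were called, 2.99% were higher in every late than in every early library, and 0.336% were lower. The early mean of actin and transgelin owed much to animal 368: without it the late minus early log2 fold was 0.98 for Acta2 and 0.70 for Tagln, and for Myh11 it was 1.13 without animal 349.

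The interaction of strain and stage, the late minus the early strain difference, contains the contrast on which the members were chosen. That choice leans it toward negative values, so it is given with no test. It was -1.47 for Acta2 (SE 0.53), -1.20 for Tagln (SE 0.70) and -0.65 for Myh11 (SE 0.55) on the log2 scale, beside a median of 0.21 for all IDs, of which 0.00908% were called, and of -0.91 for the vessel-enriched IDs. Without Wistar animal 368 it was -2.37 for Acta2 and -2.20 for Tagln.

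**Figure D2:**
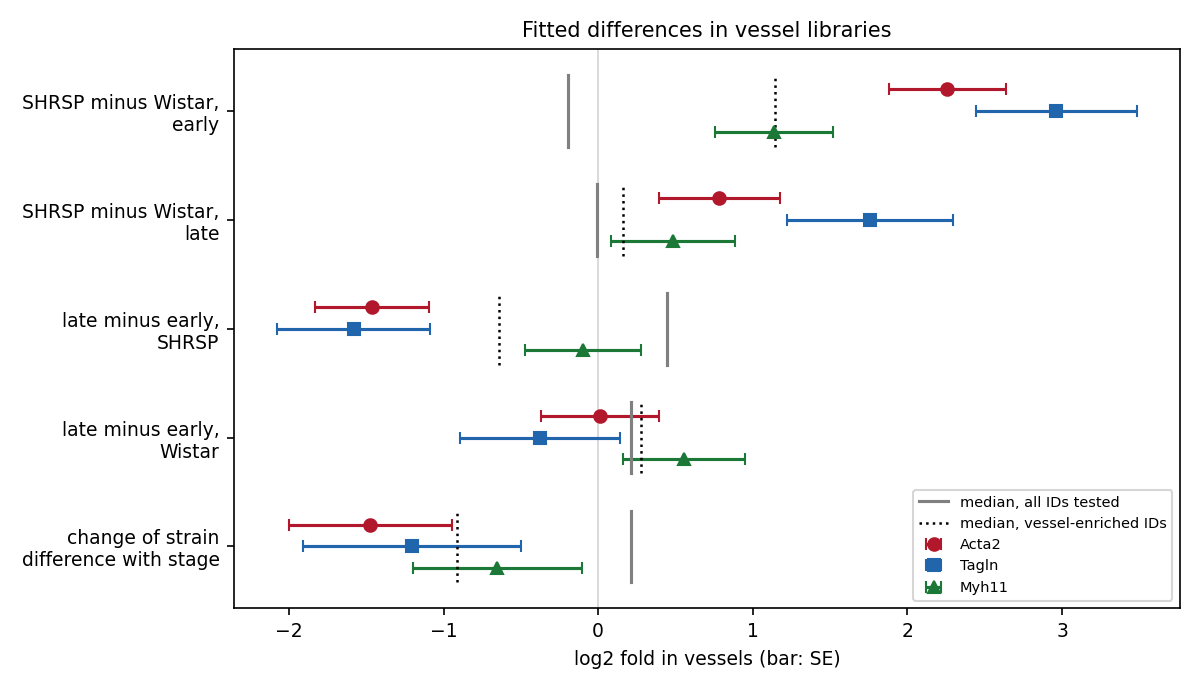
Log2 folds of Acta2, Tagln and Myh11 between groups of vessel libraries, with SE bars, beside the median of all 11011 IDs tested (grey line) and of 868 vessel-enriched IDs (dotted line). The early strain folds of 2.26 and 2.96 for Acta2 and Tagln stand right of both medians, while Myh11 at 1.14 stands on the vessel-enriched median.

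The balance among the 3 genes can be read inside each library, where scaling drops out, and the ratios are compared between libraries only. Early SHRSP vessels held 0.75, 0.22, 0.30, 1.02 and 0.38 Myh11 counts per Acta2 count in animals 374, 377, 380, 383 and 386, against 3.74, 2.24, 0.53, 3.50 and 0.61 in early Wistar animals 340, 343, 346, 349 and 368. Myosin was thus low relative to actin in 4 of the 5 early SHRSP libraries, and in Wistar animals 346 and 368. All of these were low-share animals, as were Wistar animals 340 and 343 at 3.74 and 2.24. The early high-share animals 383 and 349 stood at 1.02 and 3.50. Late SHRSP vessels held 0.75, 1.05, 1.93, 1.75 and 2.12, against 0.99, 2.37, 2.45 and 1.57 in late Wistar vessels. The geometric means were 1.41 in late SHRSP, 1.74 in late Wistar, 0.455 in early SHRSP and 1.57 in early Wistar vessels. Early SHRSP was thus the group that stood lowest, with some overlap with each of the others. All late libraries were of high-share animals, and the part of the library set in these ratios was not tested. The early ratios also come from the counts on which the members were chosen.

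Tagln counts per Acta2 count spread least in early SHRSP vessels, between 0.362 and 0.678, and most in early Wistar vessels, between 0.0219 and 1.12. The geometric means were 0.414 in late SHRSP, 0.225 in late Wistar, 0.505 in early SHRSP and 0.291 in early Wistar vessels, all within overlapping ranges. The low end of early Wistar was animal 346, with 27 Tagln counts beside 1235 Acta2 counts, while animal 340 had 132 beside 118. Transgelin counts did not track actin counts closely across these Wistar libraries.

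**Figure D3:**
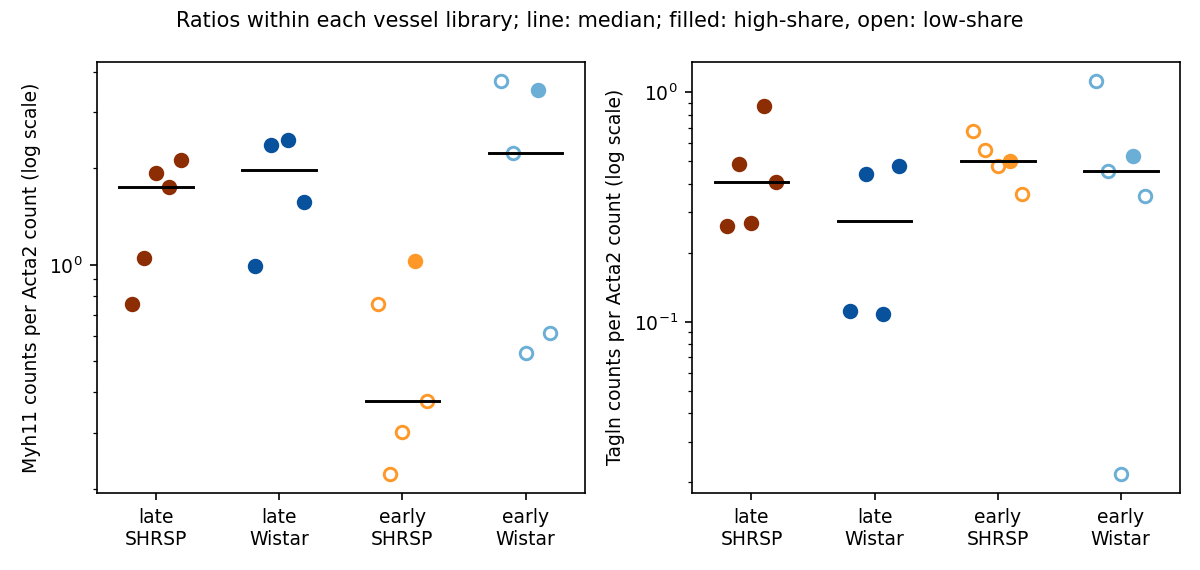
Myh11 counts per Acta2 count (left) and Tagln counts per Acta2 count (right) in each vessel library on a log axis, by group, with the median as a line and high-share animals filled. For Myh11, 4 of the 5 early SHRSP libraries lie at 0.22 to 0.75 and animal 383 at 1.02; for Tagln, early Wistar libraries span 0.0219 to 1.12.

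Across the 19 vessel libraries, the log2 CPM of Acta2 and Tagln had a Pearson r of 0.767 (Spearman rho 0.828), those of Acta2 and Myh11 an r of 0.625 (rho 0.368) and those of Tagln and Myh11 an r of 0.628 (rho 0.451). After the group means were subtracted, the r values were 0.426, 0.527 and 0.569 in the same order. These points share a tissue cut and a library, so they describe how the genes varied together and carry no test.

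The ID most like the mean of the 3 members over the 19 vessel libraries was ENSRNOG00000012840, with r = 0.924, or 0.853 after group means were subtracted. It had mean log2 CPM of 10.24 in late SHRSP, 10.001 in late Wistar, 10.66 in early SHRSP and 9.55 in early Wistar vessels. The next was ENSRNOG00000050190, with r = 0.912, or 0.782 after subtraction, and mean log2 CPM of 6.11, 5.59, 8.03 and 4.61 in the same groups. Of the 50 most alike among 11008 IDs, 47 were vessel-enriched, and 9 of the 50 were also among the 50 most alike after subtraction.

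Against neurons, the 3 genes stood near the top of the whole table in vessels, as the choice of members implies. On a common scale for all 38 libraries the mean log2 fold over the 4 groups was 5.78 (SE 0.32, or 55.0-fold) for Acta2, 6.12 (SE 0.40, or 69.6-fold) for Tagln and 5.90 (SE 0.33, or 59.6-fold) for Myh11. At least 99.8% of the 12117 IDs had a smaller fold than each of them, and the median of all was -0.38. Of all IDs, 25.4% were called, 7.77% as higher in vessels, or 6125 IDs with the animal as a replicate block against 3075 without, and the members' folds with the block were 5.67, 5.92 and 5.91.

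Within each animal, the vessel library held 58.8 times the neuron CPM at the median for Acta2 (3.09 to 345), 97.7 times for Tagln (1.53 to 590) and 58.9 times for Myh11 (16.4 to 987). The ratio was above 1 in all 19 animals for all 3 genes. The smallest ratios were those of early Wistar animals, 340 for Acta2, 346 for Tagln and 343 for Myh11, and animal 368 of the same group had the largest for Acta2 and Myh11. The medians for Acta2, Tagln and Myh11 were 118, 223 and 75.6 in early SHRSP, against 28.3, 9.85 and 24.7 in early Wistar rats. The only overlap of vessel and neuron libraries of a group was that of Tagln in early Wistar. Vessel libraries were all above neuron libraries for 5.99% of IDs in late SHRSP, 8.76% in late Wistar, 0.982% in early SHRSP and 0.817% in early Wistar rats, a contrast that chose the members.

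**Figure D4:**
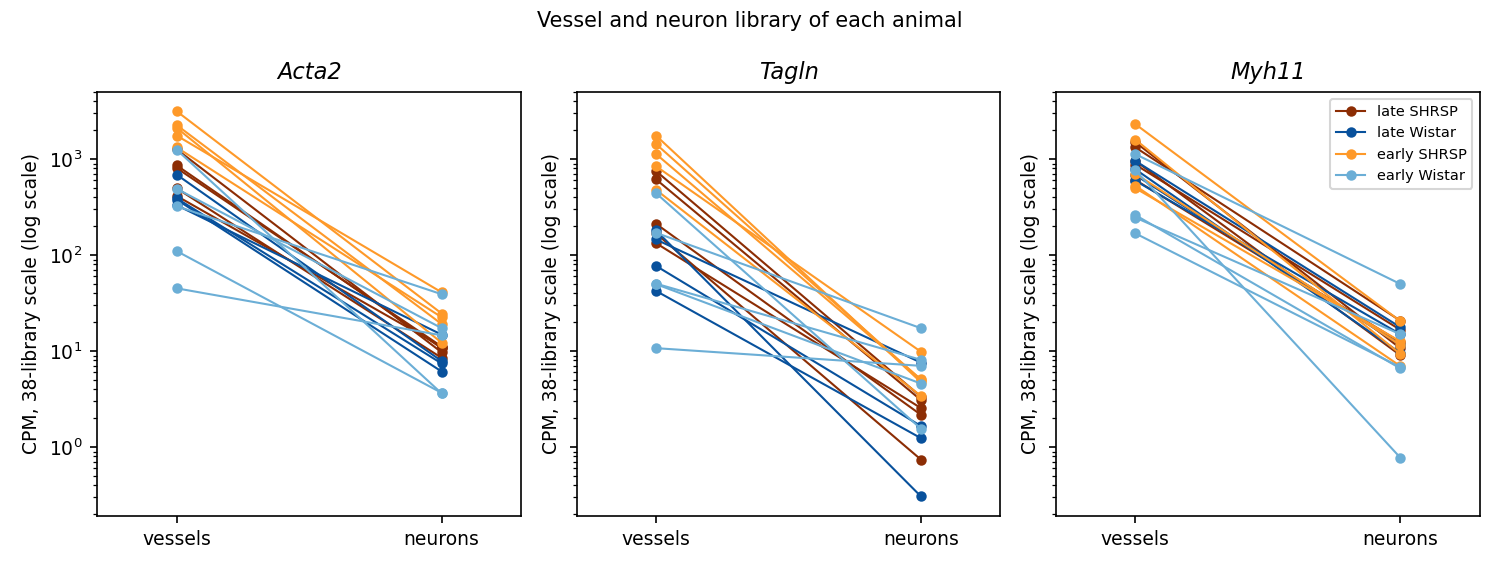
CPM of each gene in the vessel library (left end) and the neuron library (right end) of the same animal, on a log axis and a scale common to all 38 libraries, with lines coloured by group. All 57 lines fall toward the neuron end; the flattest, at a ratio of 1.53, is Tagln in early Wistar animal 346.

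By mean level on that common log2 scale, the order for Acta2 and Tagln was early SHRSP, late SHRSP, late Wistar and early Wistar vessels, then neurons. For Acta2 the means were 10.99 ± 0.46, 9.47 ± 0.65, 8.75 ± 0.47 and 7.98 ± 1.86 log2 CPM (SD), and among these neighbours only early and late SHRSP did not overlap. For Tagln they were 10.01 ± 0.73, 8.20 ± 1.13, 6.60 ± 0.94 and 6.21 ± 2.0 log2 CPM, with every neighbour overlapping. For Myh11 late SHRSP, at 9.97 ± 0.52 log2 CPM, and early SHRSP, at 9.86 ± 1.0, were level, followed by late Wistar at 9.54 ± 0.29 and early Wistar at 8.62 ± 1.17, again with every neighbour overlapping. The vessel groups were separated from the neuron groups for Acta2 and Myh11 and not for Tagln.

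Neuron libraries held few counts of the 3 genes, between 1 and 156 per gene and library, and none was at 0. Acta2 had 11.1, 10.3, 8.3, 10.8 and 11.5 CPM in late SHRSP neurons and 8.3, 14.5, 7.9 and 6.3 CPM in late Wistar neurons, against 12.1, 23.8, 38.8, 18.4 and 21.5 CPM in early SHRSP and 14.2, 3.8, 17.0, 38.1 and 3.5 CPM in early Wistar neurons. Late SHRSP libraries were all just below the early SHRSP libraries, which was so for 3.58% of 10833 IDs tested in neurons, and the Wistar groups overlapped, where 3.75% of IDs were lower in every late library. Early Wistar animal 349 had the highest value of its group for all 3 genes and animal 368 the lowest.

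Tagln averaged 2.41 ± 1.05 CPM in late SHRSP, 2.69 ± 3.19 in late Wistar, 5.41 ± 2.30 in early SHRSP and 7.58 ± 5.74 in early Wistar neurons (SD). Myh11 averaged 14.2 ± 5.33, 13.9 ± 4.10, 11.8 ± 4.92 and 15.6 ± 19.3 CPM in the same groups. The transgelin means were lower late in either strain, with wide spread in Wistar, and the myosin means were close together.

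As the mean of both strains, Acta2 and Tagln were lower in late than in early neurons, just past the threshold, and Myh11 did not pass. The late minus early log2 fold was -0.94 for Acta2 (SE 0.35; edgeR's adjusted p = 0.0458), -1.30 for Tagln (SE 0.48; edgeR's adjusted p = 0.0450) and 0.04 for Myh11 (SE 0.42; edgeR's adjusted p = 0.955). Of all IDs tested, 28.9% were called here, 13.2% as lower late, so 2 of 3 members called is a count set against a large background. All late animals and few early animals were high-share, so stage and library set were nearly the same split. With the library set as a term, 3 IDs were called. Each call was lost in 14 of the 19 fits that left out 1 animal: that of Acta2 held without animal 343, 351, 368, 374 or 383 and that of Tagln without 343, 351, 368, 382 or 386. Tagln was at -1.96 without animal 351. Both calls were also lost with DESeq2-type scaling, with no low-count filter, with limma voom, in high-share animals only and with the library set as a term (edgeR's adjusted p = 0.865 for either gene), where the log2 folds were -1.71 and -1.99. They held with DESeq2 and without the most abundant ID. Adjusted p ran between 0.0103 and 0.865 for Acta2 and between 0.00576 and 0.865 for Tagln over all alternatives.

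Vessel-enriched IDs held 1.36% to 2.10% of the counts in late and 2.32% to 3.46% in early neuron libraries, so their share moved in the same direction as Acta2 and Tagln. It is a share of all counts, including those of the most abundant ID, which took more of them in high-share animals. Early high-share animals 383 and 349 stood at 2.32% and 2.36%, and low-share animal 368 at 2.33%. The part of vessel content was not tested. Between strains in neurons, the log2 fold as the mean of stages was 0.38 for Acta2 (SE 0.35; edgeR's adjusted p = 0.891), -0.33 for Tagln (SE 0.48; adjusted p = 0.956) and -0.19 for Myh11 (SE 0.42; adjusted p = 0.980), where 0.674% of IDs were called. Leaving out animal 351 turned the Tagln value to 0.33. Between an animal's vessel and neuron libraries, r was 0.286 for Acta2, 0.0563 for Tagln and 0.293 for Myh11 over 19 animals, and -0.135, -0.0408 and 0.198 after group means were subtracted.

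**Figure D5:**
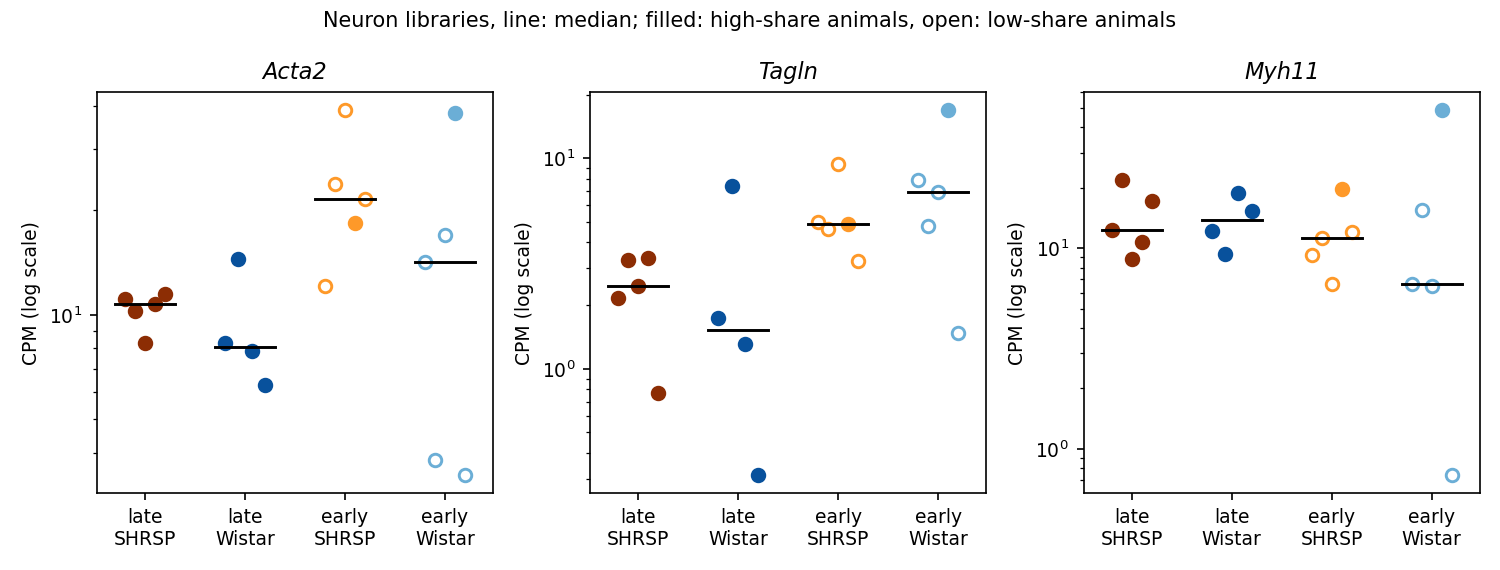
CPM of each gene in the 19 neuron libraries on a log axis, by group, with the group median as a line and high-share animals filled. Acta2 lies between 8.3 and 11.5 CPM in late SHRSP and between 12.1 and 38.8 CPM in early SHRSP neurons, and early Wistar spreads widest for Acta2 and Myh11.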

How the data were processed

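The authors deposited a table of raw counts per Ensembl rat gene ID for 38 libraries, made from QuantSeq 3' FWD libraries of PicoPure RNA, per the labels' protocols. The submitters' processing notes list HTSeq 0.6.1 and STAR 2.5.3a, besides DESeq2 1.18.1 and FastQC 0.11.5. The sources used here name no genome build. The members and lists were chosen with earlier results of these data known. No test is given for the interaction of strain and stage, although one had been planned, because it contains the contrast that chose the members.

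Counts were filtered (filterByExpr), TMM-scaled and fitted with edgeR 4.0.16 (R 4.3.3; robust quasi-likelihood, groups of strain and stage as terms) over all 19 libraries of a material, or all 38, leaving 11011 vessel, 10833 neuron and 12117 joint IDs. Adjusted p-values are Benjamini-Hochberg over all of them, with a threshold of 0.05, and the SE is the log2 fold divided by the root of F. CPM and log2 CPM (prior count 2) were computed from the counts. Vessel-enriched IDs had an adjusted p under 0.05 and a log2 fold of at least 1 over neurons in these same libraries. Alternatives used DESeq2 1.42.0 and limma 3.58.1. The vessel fit was run on simulated counts for the early strain contrast only, with differences placed in IDs of low spread. Nothing on the neuron or joint fits, or on variable genes such as the members, is read from it. Nothing in the labels says more about replicates than the animal number, and no 2 libraries of a group agreed within sampling noise.

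Vessel and neuron libraries with the same animal number in their titles came from the same animal, which is the source of the pairing; their deviations from group means correlated at a median r of 0.0473 over 19 pairs (-0.231 to 0.407). None of the 32883 IDs could be matched to names in the reference table, so the marker and pathway lists that had been drawn up were not used here, and the named genes are the 3 members plus the 2 IDs with the highest r to their mean. Tagln and Myh11 promoters were not analysed here.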

Additional observations from a re-analysis of the deposited data

Results flagged for a closer look

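In 24 groups of libraries, 8 per gene, the highest or lowest library was set against its nearest neighbour, and 2 stood apart. For normally distributed values chance alone gives about 1 in 20 groups, and whether these CPM values are so distributed was not checked. Acta2 in late Wistar vessels was 694 CPM in animal 350, against 394 CPM in the next library. Tagln in early SHRSP neurons was 9.33 CPM in animal 380, against 4.99 CPM in the next library, from 31 counts. Leaving animal 350 out gave a late strain log2 fold of 1.13 for Acta2, against 0.78 with it.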

How the results depend on the processing

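Of the members' folds, the early strain and vessel over neuron folds kept their sign in every alternative run, as did the late strain folds, which stayed short of the threshold. With DESeq2-type scaling the late minus early neuron log2 folds were -0.87 for Acta2 and -1.25 for Tagln, with no low-count filter -0.93 and -1.29, with limma voom -0.63 and -1.39, with high-share animals only -1.45 and -1.82, and with the library set as a term -1.71 and -1.99, all short of the threshold. Acta2 in late minus early SHRSP vessels passed with limma voom (-1.43) and with only the 2 groups compared (-1.35). Tagln passed there with limma voom (-1.75). The members were chosen for high values in these same early SHRSP libraries, so these passes are not independent of that choice. Signs turned for Tagln (0.35, limma voom) and Myh11 (-0.58 with high-share animals only, -0.51 with the library set as a term) in late minus early Wistar vessels. They also turned for the neuron strain folds of Tagln (0.16) and Myh11 (0.34) with limma voom, of Acta2 with high-share animals only (-0.46) and of Myh11 with the library set as a term (0.034), and for the neuron stage fold of Myh11 (-1.18 with high-share animals only, -1.29 with the set term). The cause was not tested.

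Leaving out 1 animal gave ranges of -0.28 to 0.50 for Myh11 in late minus early SHRSP vessels, and of -0.21 to 0.98 for Acta2 and -0.68 to 0.70 for Tagln in Wistar vessels. In neurons it gave -1.09 to -0.59 (Acta2), -1.96 to -1.04 (Tagln) and -0.12 to 0.59 (Myh11) between stages, and -0.53 to 0.33 (Tagln) and -0.34 to 0.36 (Myh11) between strains.

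Counts of all IDs called moved more. In early vessels between strains they were 28 in the fit used, 55 with DESeq2-type scaling, 16 with no low-count filter, 481 with DESeq2, 136 with limma voom, 11 in low-share animals only, 9 with only the 2 groups compared and 7 to 1137 leaving out 1 animal. In late vessels between strains they were 0, against 11 with DESeq2, 1 with limma voom, 1 with high-share animals only, 1 with only the 2 groups compared and 0 to 1 leaving out 1 animal. For late minus early SHRSP vessels the count was 1, against 2 with DESeq2-type scaling, 0 with no low-count filter, 358 with DESeq2, 1252 with limma voom, 23 with high-share animals only, 0 with the set term, 6 with only the 2 groups compared and 0 to 1310 leaving out 1 animal. For late minus early Wistar vessels it was 1, against 3 with DESeq2-type scaling, 4 with no low-count filter, 34 with DESeq2, 0 with limma voom, 3 without the most abundant ID, 0 with high-share animals only, with the set term and with only the 2 groups compared, and 0 to 6 leaving out 1 animal. For the interaction of strain and stage it was 1, against 2 with DESeq2-type scaling, 3 with no low-count filter, 128 with DESeq2, 0 with limma voom, 18 with high-share animals only, 0 with the set term and 0 to 8 leaving out 1 animal. In neurons it was 73 between strains, against 159 with DESeq2, 6 with high-share animals only and 40 to 122 leaving out 1 animal, and 3126 between stages, against 5 with high-share animals only and 3 with the set term. Between materials it was 3075, against 7684 with limma voom and 6125 with the animal number as a replicate block; the block moved no member's direction.

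Neuron counts of the 3 genes, 1 to 156 per library, limit the precision there, and with 4 or 5 animals a group and wide spread in early Wistar vessels, a miss of the threshold does not show equal levels. The p-values and SEs of edgeR use a spread estimated in part from all IDs, so they do not rest on the spread between these animals alone. For the early strain fold of Acta2 in vessels the SE was 0.378 in edgeR, 0.689 with DESeq2 and 0.592 with limma voom. The SE of limma voom was smaller for some other folds, at 0.289 against 0.369 for Acta2 in late minus early SHRSP vessels.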
